A study of Mus musculus with 2 samples.

Results

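The genes described here are the cyclins, the cyclin-dependent kinases (CDKs) and the CDK inhibitors measured in cultured mouse dermal cells. They were taken by their symbols, from genes whose symbol is Ccn followed by a letter and a number, Cdk followed by a number, or Cdkn followed by a number and a letter from a to d. The genes described number 41 among the 17431 genes with a read in either library, and 38 of them passed an expression filter that 12053 genes passed in all. That filter asked for at least 1 RPKM (reads scaled by gene length and by library size) and at least 20 reads in either library. Of the 41, 1 matched by name alone, since Ccnb1ip1 encodes a cyclin B1-interacting protein and no cyclin.

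Poly(A) RNA was sequenced from 2 cultures of BALB/c mouse dermis, with 1 library each. Skin-derived precursors (SKPs), multipotent dermal cells that are propagated in growth factors, came from mice at postnatal day 4 and were grown in DMEM/F12 (3:1) that held B27 (2%) and the mitogens FGF2 (40 ng/ml) and EGF (20 ng/ml). Dermal fibroblasts came from mice at postnatal day 3 and were grown in DMEM with 10% fetal bovine serum. Medium, age and cell type therefore differed together and cannot be told apart, and the sources used here do not give how many mice each culture came from. There were no replicates, so each difference below is one between 2 libraries and has no replicate check. Intervals in parentheses are 95% exact counting intervals and cover counting error only.

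Cyclins are the regulatory subunits that switch on CDKs, and their own abundance sets when each kinase is active. D cyclins with Cdk4 or Cdk6 begin the inactivation of the retinoblastoma pocket proteins in G1 in answer to mitogens, E cyclins with Cdk2 carry the cell into S phase, and A and B cyclins with Cdk1 drive mitosis. The INK4 inhibitors bind Cdk4 and Cdk6, the CIP/KIP inhibitors bind cyclin-CDK complexes more broadly, and several further CDKs act in transcription and not in the cell cycle.

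In SKPs, 5 of the 38 expressed genes stood at least 2-fold above fibroblasts with an interval that excluded equality. These were the inhibitors Cdkn2a and Cdkn2b, the kinases Cdk6 and Cdk20, and the cyclin Ccnd1. They were 13.2% of the expressed genes of the group, beside 12.1% of all expressed genes. A further 2, the kinases Cdk8 and Cdk18, were lower in SKPs by the same measure, which was 5.26% of the group beside 6.41% of all expressed genes. The group as a whole was therefore close to the background in both directions. On the log2 scale of SKP over fibroblast RPKM its median was -0.0137, close to the -0.00654 of all expressed genes. The ratios ran from -2.44 to 2.22 on the log2 scale, and 18 of the 38 genes lay within 1.25-fold, beside 5391 of the 12053. By counting error alone, 15 of the 38 had intervals above equality, 14 had intervals below it and 9 included it. Of the 12053 expressed genes, 4335 had intervals above equality, 4356 below it and 3362 included it, so these counts too were near the background. The authors' deposited table of filtered genes held 15.3% of the 17431 genes, and of the 41 it held the same 7. It rests on the same read counts and also holds only genes at least 2-fold apart, so the match is no independent check.

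**Figure D1:**
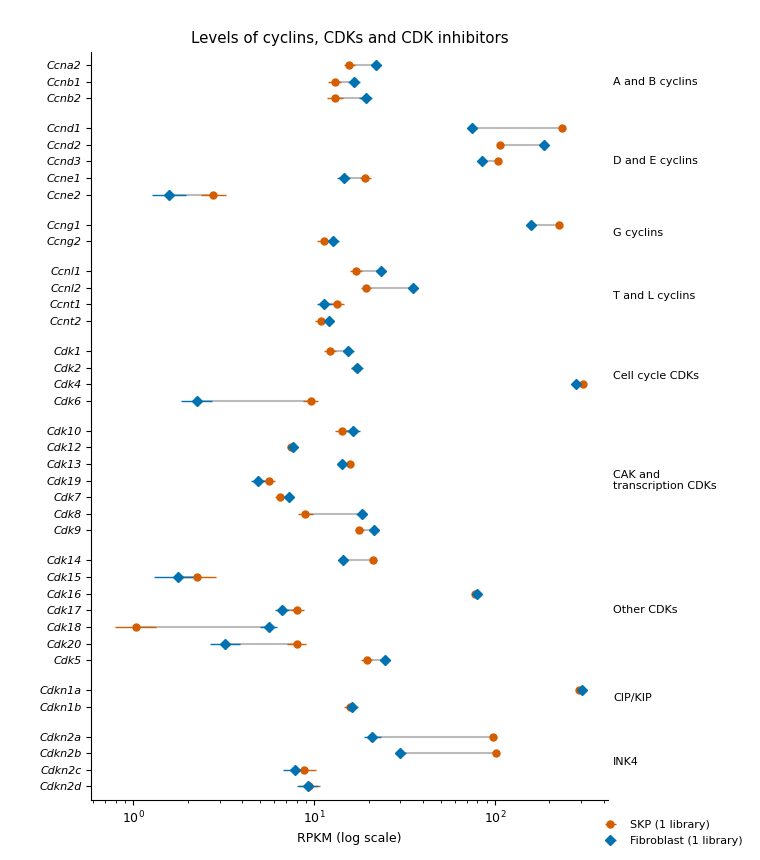
RPKM (log scale) of the 38 expressed genes in the SKP library (circles) and the fibroblast library (diamonds), with 1 library each, by functional class. Lines through the points are 95% exact counting intervals and grey bars join the libraries. Cdk4 and Cdkn1a held the highest levels in both libraries, and the widest gaps were those of Cdk18, Cdkn2a and Cdk6.

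**Figure D2:**
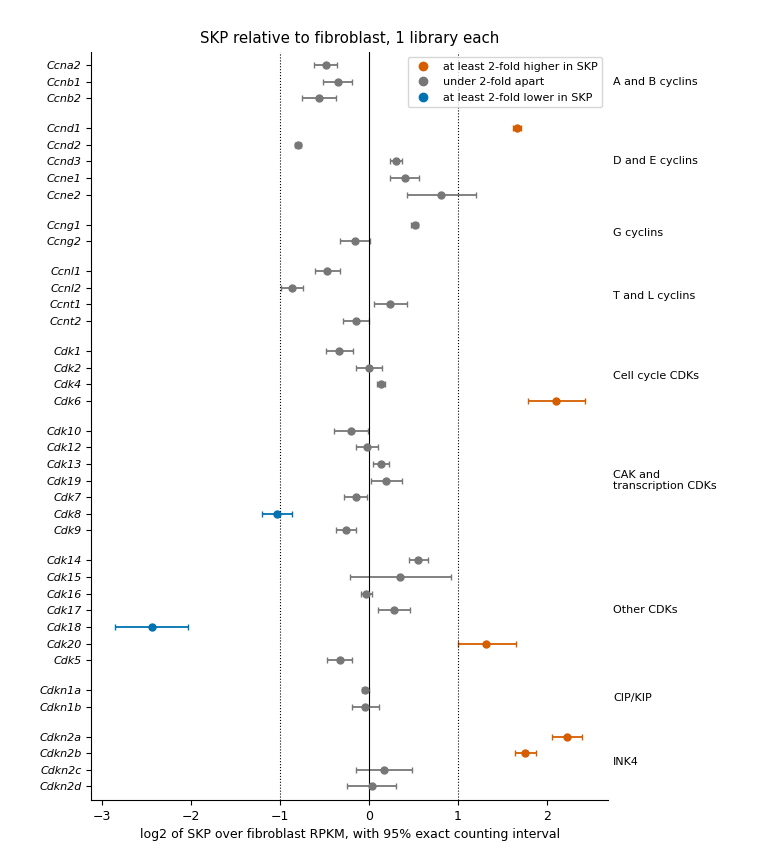
log2 of SKP over fibroblast RPKM for the same 38 genes, with 95% exact counting intervals. The solid line marks equality and the dotted lines 2-fold. The 5 genes at least 2-fold higher in SKPs lie right of the right dotted line and the 2 at least 2-fold lower lie left of the left one.

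The D cyclins, which couple growth factor signals to Cdk4 and Cdk6, stood in a different order in the cultures. Ccnd1, the cyclin D1 gene and a classic mitogen-induced gene, had 236 RPKM from 16940 reads in SKPs and 74.7 RPKM from 5220 reads in fibroblasts. It was 3.15-fold higher in SKPs (3.06 to 3.25). Ccnd2, which encodes cyclin D2, ran the other way, at 107 RPKM from 11682 reads in SKPs against 186 RPKM from 19751 reads in fibroblasts. It was 1.74-fold lower in SKPs (1.70 to 1.78), short of the 2-fold limit. Ccnd3, which encodes cyclin D3, had 104 RPKM in SKPs and 84.3 RPKM in fibroblasts, a ratio of 1.24 (1.18 to 1.29). An exon of Ccnd3 overlaps Bysl on the opposite strand, which had 686 reads in SKPs and 921 in fibroblasts.

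In SKPs the RPKM of Ccnd1 was 2.20 times that of Ccnd2 (2.15 to 2.26), and the intervals of Ccnd2 and Ccnd3 overlapped. In fibroblasts the RPKM of Ccnd1 was 0.402 times that of Ccnd2 (0.390 to 0.414), and Ccnd3 lay between them with no overlap. The summed level of the D cyclins differed less than that of Ccnd1, at 446 RPKM in SKPs and 345 RPKM in fibroblasts, a ratio of 1.29. Reads that matched several genes were counted in a way the sources used here do not give, so the split of reads between related genes is uncertain.

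The E cyclins, partners of Cdk2 at the start of S phase, were both somewhat higher in SKPs. Ccne1 had 19.2 RPKM from 735 reads in SKPs and 14.5 RPKM from 541 reads in fibroblasts, a ratio of 1.32 (1.18 to 1.48). Ccne2 had 2.78 RPKM from 159 reads in SKPs and 1.58 RPKM from 88 reads in fibroblasts, a ratio of 1.76 (1.34 to 2.30). Ccne2 was thus the low member of the pair in both libraries, and neither gene reached the 2-fold limit. Reads covered 35.2% of the length of Ccne2 in SKPs and 33.6% in fibroblasts. An exon of Ccne2 overlaps Ints8 on the opposite strand, which had 756 reads in SKPs and 811 in fibroblasts, more than Ccne2 in each. The sources used here do not give whether the counting used strand, so reads of overlapping genes cannot be told apart. An exon overlap with another gene was annotated for 19 of the 41 genes. Among the 7 called genes these were Ccnd1, Cdk6, Cdk18 and Cdk20, each with a gene on the opposite strand for which no value was matched here. The overlapping genes are LTO1, Gm17590, Gm29629 and 1700015C15Rik in that order, and a missing match does not show that they had no reads.

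The cyclins of S phase and mitosis lay the other way. Ccna2, the A cyclin of dividing somatic cells, had 15.6 RPKM in SKPs and 22.0 RPKM in fibroblasts, a ratio of 0.712 (0.650 to 0.779). An exon of it overlaps Exosc9 on the opposite strand, which had 241 reads in SKPs and 417 in fibroblasts. Ccnb1, the main mitotic partner of Cdk1, had 12.99 RPKM in SKPs and 16.6 RPKM in fibroblasts, a ratio of 0.782 (0.699 to 0.874). Ccnb2, the second B cyclin, had 13.01 RPKM in SKPs and 19.3 RPKM in fibroblasts, a ratio of 0.675 (0.590 to 0.771). All 3 intervals lay below equality and none of the 3 genes reached 2-fold. Together the 3 summed to 41.6 RPKM in SKPs and 57.9 RPKM in fibroblasts. Cdk1, their catalytic partner, had 12.2 RPKM in SKPs and 15.4 RPKM in fibroblasts, a ratio of 0.792 (0.714 to 0.879), close to those of the cyclins it binds. Reads covered 54.8% of the length of Cdk1 in SKPs and 49.9% in fibroblasts, whereas the other 30 genes of the group with at least 300 reads in each library had a coverage of at least 78.3%. The germline cyclins Ccna1 and Ccnb3 were at the limit of detection, as was Ccnb1ip1, which matched by name alone and is no cyclin. Ccna1 had 0 reads in SKPs, with an upper limit of 0.123 RPKM, and 1 read in fibroblasts, while Ccnb3 had 3 reads in each library and Ccnb1ip1 had 0 reads in SKPs and 4 in fibroblasts.

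Promoters of late cell cycle genes are known for NF-Y boxes and a nearby cell cycle genes homology region (CHR). Transcription of these genes is held down in G1 and released in G2. The promoters of Ccnb1, Ccnb2 and Cdk1 are printed because these genes lay on the same side and because windows of this kind are where such elements are looked for. Each window runs from 250 bases before to 50 bases after the annotated start, 5′ to 3′ on the strand of the gene, from RefSeq on GRCm38.p6, a later build than that of the reads. Capitals mark matches on either strand to the NF-Y box CCAAT, to a CHR written as TTTGAA or TTCGAA, and to an E2F core written as TTGGCGC or TTCCCGC or TTCGCGC or TTGCCGC, with overlapping matches joined in 1 run. The windows are Ccnb1 at chr13:100786437-100786736, Ccnb2 at chr9:70421505-70421804 and Cdk1 at chr10:69352863-69353162, all on the minus strand.
Ccnb1: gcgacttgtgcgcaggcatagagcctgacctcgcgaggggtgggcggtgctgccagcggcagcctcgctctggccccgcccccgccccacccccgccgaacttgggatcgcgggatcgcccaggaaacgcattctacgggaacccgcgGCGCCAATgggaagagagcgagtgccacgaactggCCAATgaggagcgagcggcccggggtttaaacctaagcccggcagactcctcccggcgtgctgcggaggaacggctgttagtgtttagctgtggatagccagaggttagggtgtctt
Ccnb2: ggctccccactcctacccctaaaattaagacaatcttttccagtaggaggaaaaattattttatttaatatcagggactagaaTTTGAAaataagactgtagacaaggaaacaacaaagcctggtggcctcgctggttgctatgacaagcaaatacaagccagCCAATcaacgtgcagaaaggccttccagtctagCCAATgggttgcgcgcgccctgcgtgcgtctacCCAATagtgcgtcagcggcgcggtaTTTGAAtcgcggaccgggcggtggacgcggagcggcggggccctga
Cdk1: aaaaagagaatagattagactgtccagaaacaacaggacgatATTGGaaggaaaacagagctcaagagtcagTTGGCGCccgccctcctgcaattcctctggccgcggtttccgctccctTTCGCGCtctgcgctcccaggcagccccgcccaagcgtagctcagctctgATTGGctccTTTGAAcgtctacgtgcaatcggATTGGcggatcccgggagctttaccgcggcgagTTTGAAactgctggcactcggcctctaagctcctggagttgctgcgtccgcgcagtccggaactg

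The Ccnb2 window held 3 NF-Y boxes and 2 CHR matches, of which the CHR at 5 to 10 bases after the start follows the last box. The Cdk1 window held 3 NF-Y boxes, 2 E2F cores and 2 CHR matches, of which 1 ends 10 bases before the start. Ccnb1 held 2 NF-Y boxes, the first overlapping an E2F core, and no CHR in these letters. Windows were found for 34 of the 41 genes, 39 windows in all, and the others were Ccna2, Ccnd1, Ccnd2, Ccne2, Cdk5, Cdk17 and Cdk19. Of the 39, those of Ccnb2 and Cdk1 and the first of Cdk16 held at least 3 NF-Y boxes with a CHR, 3 in all. Among all 32851 windows of this length 0.639% did. The combination describes what the printed Ccnb2 and Cdk1 windows hold, so these shares are no test of enrichment. At least 3 NF-Y boxes, with or without a CHR, were in 6 of the 39 windows beside 3.37% of all windows. Any window of the group on chr18 was left out of the 39, whereas all windows keep that chromosome. Single elements were common, since an NF-Y box was in 17 of the 39 windows (43.6%) beside 37.4% of all windows, and a CHR was in 4 (10.3%) beside 19.2%. An E2F core was in 8 of the 39 (20.5%) beside 9.57% of all windows. A match is a description of letters in a window, and binding was not measured. Cdk16, which shares the combination, was near equality, with 77.8 RPKM in SKPs and 79.6 RPKM in fibroblasts and a ratio of 0.977 (0.937 to 1.02).

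**Figure D3:**
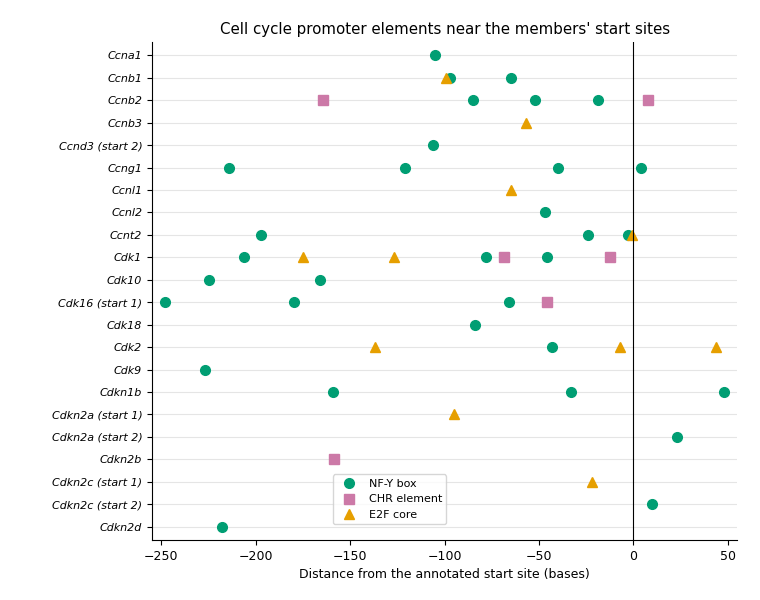
Positions of NF-Y boxes (circles), CHR elements (squares) and E2F cores (triangles) by distance in bases from the annotated start of each gene of the group with a match, in windows of 250 bases before to 50 bases after it. Genes with 2 starts have a row per start. Ccnb2 and Cdk1 hold 3 NF-Y boxes and 2 CHR matches each.

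The G cyclins are known for links to p53 and to cell cycle exit. Ccng1, a direct p53 target, was among the most abundant genes of the group, at 226 RPKM in SKPs and 159 RPKM in fibroblasts, a ratio of 1.42 (1.39 to 1.46). Ccng2, a cyclin of quiescent cells, had 11.3 RPKM in SKPs and 12.7 RPKM in fibroblasts, and its interval included equality. The L cyclins, which act in splicing, were both lower in SKPs without reaching 2-fold. Ccnl2 had 19.3 RPKM in SKPs and 35.2 RPKM in fibroblasts, a ratio of 0.548 (0.505 to 0.595), and Ccnl1 had 17.0 RPKM in SKPs and 23.5 RPKM in fibroblasts, a ratio of 0.721 (0.653 to 0.796). The T cyclins, partners of Cdk9 in transcription elongation, differed less. Ccnt1 had 13.4 RPKM in SKPs and 11.4 RPKM in fibroblasts, and Ccnt2 had 10.9 RPKM in SKPs and 12.1 RPKM in fibroblasts.

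Among the cell cycle kinases only Cdk6 reached 2-fold. It had 9.59 RPKM from 449 reads in SKPs and 2.24 RPKM from 102 reads in fibroblasts, and was 4.28-fold higher in SKPs (3.44 to 5.35). Cdk4, which binds the same D cyclins and is the more abundant of the pair, had 306 RPKM in SKPs and 279.6 RPKM in fibroblasts, a ratio of 1.09 (1.06 to 1.13). The RPKM of Cdk4 was 31.9 times that of Cdk6 in SKPs (29.0 to 35.1) and 125 times in fibroblasts (102 to 153). Cdk4 and Cdk6 together summed to 315 RPKM in SKPs and 282 RPKM in fibroblasts, a ratio of 1.12, so the gap in Cdk6 was a small share of this sum. Cdk2, the partner of E and A cyclins, was equal, with 17.3 RPKM in each library and a ratio of 0.999 (0.904 to 1.10). An exon of Cdk4 overlaps Tspan31 on the opposite strand, which had 3006 reads in SKPs and 3089 in fibroblasts.

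Of the 7 CDKs that activate other CDKs or act in transcription, Cdk8 alone passed 2-fold. Cdk8, a kinase of the Mediator complex, had 8.92 RPKM from 437 reads in SKPs and 18.3 RPKM from 873 reads in fibroblasts. It was 2.06-fold lower in SKPs (1.83 to 2.31), so the interval reaches below 2-fold. Its paralog Cdk19, which takes the same place in Mediator, had 5.60 RPKM in SKPs and 4.89 RPKM in fibroblasts, a ratio of 1.14 (1.02 to 1.29). The RPKM of Cdk8 was 1.59 times that of Cdk19 in SKPs (1.41 to 1.80) and 3.75 times in fibroblasts (3.36 to 4.18). The other 5 stayed within 1.25-fold. Cdk7, the kinase of the CDK-activating complex, had 6.50 RPKM in SKPs and 7.22 RPKM in fibroblasts. Cdk9, the elongation kinase, had 17.8 RPKM in SKPs and 21.4 RPKM in fibroblasts, a ratio of 0.834 (0.770 to 0.903). Cdk12 and Cdk13, kinases of the polymerase tail, had 7.49 and 15.7 RPKM in SKPs against 7.62 and 14.3 RPKM in fibroblasts, and Cdk10 had 14.3 RPKM in SKPs and 16.5 RPKM in fibroblasts.

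The remaining kinases held the lowest ratio of the group. Cdk18, a member of the PCTAIRE branch, had 1.03 RPKM from 60 reads in SKPs and 5.61 RPKM from 316 reads in fibroblasts. It was 5.42-fold lower in SKPs (4.10 to 7.27), and reads covered 52.2% of its length in SKPs and 92.3% in fibroblasts. The related Cdk16 was near equality, as given above, and Cdk17 had 8.05 RPKM in SKPs and 6.65 RPKM in fibroblasts, a ratio of 1.21 (1.07 to 1.37). An exon of Cdk17 overlaps Elk3 on the opposite strand, which had 4216 reads in SKPs and 2409 in fibroblasts. Cdk20, also known as cell cycle-related kinase and linked to primary cilia, had 8.03 RPKM from 282 reads in SKPs and 3.22 RPKM from 110 reads in fibroblasts, and was 2.49-fold higher in SKPs (1.99 to 3.13), so its interval too reaches just below 2-fold. Cdk14, which phosphorylates a Wnt co-receptor with a Y cyclin, had 21.2 RPKM in SKPs and 14.4 RPKM in fibroblasts, a ratio of 1.47 (1.37 to 1.58). Cdk5, best known in neurons, had 19.5 RPKM in SKPs and 24.6 RPKM in fibroblasts, a ratio of 0.796 (0.722 to 0.877), and Cdk15 had 63 reads in SKPs and 48 in fibroblasts, with an interval that included equality.

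The inhibitors separated by gene. Cdkn2a, which encodes the INK4 inhibitor p16Ink4a and, from another first exon, the p53 activator p19Arf, had 97.9 RPKM from 1723 reads in SKPs and 21.0 RPKM from 359 reads in fibroblasts. It was 4.66-fold higher in SKPs (4.16 to 5.24). Cdkn2b, its neighbour and the gene of p15Ink4b, had 101 RPKM from 2667 reads in SKPs and 30.0 RPKM from 768 reads in fibroblasts, and was 3.37-fold higher in SKPs (3.11 to 3.66). The other INK4 genes, which lie elsewhere, did not separate the libraries. Cdkn2c had 8.82 RPKM in SKPs and 7.87 RPKM in fibroblasts, a ratio of 1.12 (0.904 to 1.39), and Cdkn2d had 9.43 RPKM in SKPs and 9.23 RPKM in fibroblasts, a ratio of 1.02 (0.844 to 1.24). Summed, the INK4 genes reached 217 RPKM in SKPs and 68.0 RPKM in fibroblasts, a ratio of 3.19. The sum takes in all Cdkn2a reads, and so any from p19Arf transcripts, which encode no INK4 inhibitor.

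The levels of the neighbours were close in SKPs, and Cdkn2b was the higher one in fibroblasts. The RPKM of Cdkn2b was 1.03 times that of Cdkn2a in SKPs (0.971 to 1.10) and 1.43 times in fibroblasts (1.26 to 1.62). Ranked by RPKM among all genes, Cdkn2b was number 631 in SKPs and 2519 in fibroblasts, and Cdkn2a number 649 in SKPs and 3493 in fibroblasts.

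Cdkn1a and Cdkn1b, inhibitors of the CIP/KIP family, were near equal in the libraries. Cdkn1a, the p21 gene and the best known p53 target of the cell cycle, had 292 RPKM from 10721 reads in SKPs and 301 RPKM from 10729 reads in fibroblasts. The ratio of 0.971 had a narrow interval (0.945 to 0.997), and that interval included equality after median of ratios scaling. Cdkn1b, the p27 gene, had 15.8 RPKM in SKPs and 16.3 RPKM in fibroblasts, from 720 reads in each. The RPKM of Cdkn1a was 18.5 times that of Cdkn1b in both libraries, and Cdkn1a was number 179 by RPKM in SKPs and 191 in fibroblasts.

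**Figure D4:**
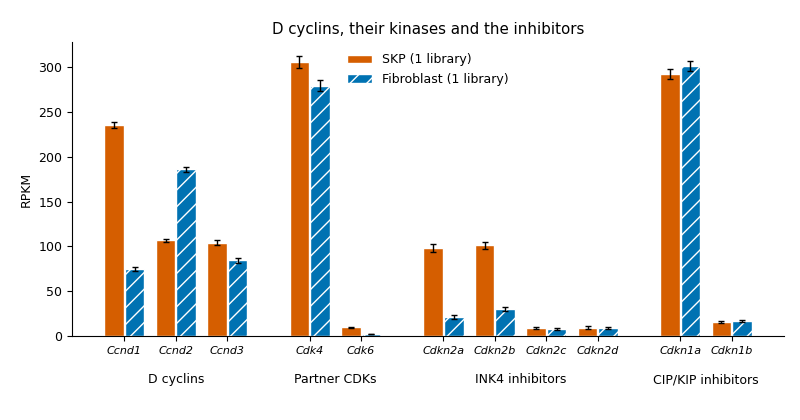
RPKM of the D cyclins, their kinases and the inhibitors in the SKP library (plain bars) and the fibroblast library (hatched bars), with 95% exact counting intervals and 1 library each. Ccnd1, Cdk6, Cdkn2a and Cdkn2b are higher in SKPs and Ccnd2 is lower, whereas Cdk4 and Cdkn1a, the tallest pairs, differ little.

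The starts of Cdkn2a and Cdkn2b are printed because these genes lie side by side and were both higher. Capitals mark the same elements as above, and the windows are again from RefSeq on GRCm38.p6. The upstream start of Cdkn2a, known for p19Arf, has the window chr4:89294570-89294869, and the start 12427 bases downstream, known for p16Ink4a, has chr4:89282143-89282442. The start of Cdkn2b, at chr4:89310983-89311282, lies 16413 bases from the nearer Cdkn2a start, and all 3 windows are on the minus strand.
Cdkn2a upstream start: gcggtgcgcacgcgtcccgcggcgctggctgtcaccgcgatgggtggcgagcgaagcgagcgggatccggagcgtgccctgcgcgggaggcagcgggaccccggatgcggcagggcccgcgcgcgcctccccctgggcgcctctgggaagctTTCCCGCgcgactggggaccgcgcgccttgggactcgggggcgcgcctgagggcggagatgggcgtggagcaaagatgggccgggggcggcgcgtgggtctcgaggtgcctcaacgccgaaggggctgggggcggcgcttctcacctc
Cdkn2a downstream start: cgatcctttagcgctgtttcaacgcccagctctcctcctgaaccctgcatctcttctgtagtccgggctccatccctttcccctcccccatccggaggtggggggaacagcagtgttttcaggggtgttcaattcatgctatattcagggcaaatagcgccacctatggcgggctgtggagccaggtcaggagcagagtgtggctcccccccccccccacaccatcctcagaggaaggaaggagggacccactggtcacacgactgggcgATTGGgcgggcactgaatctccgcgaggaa
Cdkn2b: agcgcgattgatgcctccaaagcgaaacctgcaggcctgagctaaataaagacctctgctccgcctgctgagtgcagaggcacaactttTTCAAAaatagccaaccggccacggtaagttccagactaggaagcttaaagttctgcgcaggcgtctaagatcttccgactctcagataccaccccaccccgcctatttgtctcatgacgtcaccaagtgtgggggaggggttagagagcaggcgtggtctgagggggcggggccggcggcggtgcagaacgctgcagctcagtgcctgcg

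The upstream Cdkn2a window held 1 E2F core, the downstream window 1 NF-Y box and the Cdkn2b window 1 CHR match, so the 3 windows shared none of these elements. The deposited counts are per gene and do not separate the Cdkn2a transcripts. The share of p16Ink4a and of p19Arf in the 4.66-fold difference and in the INK4 sum is therefore not known.

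Genes that act around the cyclins were described from lists written by hand. Over all expressed genes, 12.1% were called higher in SKPs and 6.41% lower. Of 12 expressed pocket protein and E2F genes, 1 (8.33%) was higher in SKPs and 0 were lower, with a median log2 ratio of -0.11. The 1 was E2f8, a repressor of the E2F family, with 8.55 RPKM in SKPs and 3.97 RPKM in fibroblasts, a 2.15-fold difference (1.86 to 2.49). Tfdp1, the common E2F partner, had 50.1 RPKM in SKPs and 59.0 RPKM in fibroblasts, and E2f4, an E2F of resting cells, had 30.8 RPKM in SKPs and 32.8 RPKM in fibroblasts. Of 11 genes of CDK phosphorylation and activation and of 15 genes of cyclin and inhibitor turnover, 0 were called in either direction, with medians of -0.19 and 0.00. Among them the CDK-binding proteins Cks1b and Cks2 had 53.1 and 23.4 RPKM in SKPs against 57.5 and 32.1 RPKM in fibroblasts. The ubiquitin ligase subunit Skp1a had 86.7 RPKM in SKPs and 86.1 RPKM in fibroblasts, and the mitotic ubiquitin-conjugating enzyme Ube2c had 31.7 RPKM in SKPs and 49.7 RPKM in fibroblasts.

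Of 13 other expressed cyclins, CDK partners and CDK-like kinases, 1 (7.69%) was higher in SKPs and 3 (23.1%) lower. Of all expressed genes, 12.1% were higher and 6.41% lower. The median log2 ratio of the 13 was 0.15. The higher one, Ccno, rested on 43 reads in SKPs and 9 in fibroblasts. Lower in SKPs was the CDK-like kinase Cdkl1, with 2 reads in SKPs and 41 in fibroblasts. The CDK-like kinase Cdkl2 was lower too, at 0.761 RPKM in SKPs and 1.73 RPKM in fibroblasts. So was the CDK partner Cables1, at 0.742 RPKM in SKPs and 2.67 RPKM in fibroblasts. The abundant Ccni had 75.2 RPKM in SKPs and 53.8 RPKM in fibroblasts, and Ccny, which encodes a Y cyclin, had 42.6 RPKM in SKPs and 25.4 RPKM in fibroblasts.

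The p53 target list, which shares its pathway with Cdkn1a and Ccng1, was written by hand. It holds the whole Gadd45 family and Trp53 itself, and its genes lay on both sides of equality. Of 15 expressed genes, 1 (6.67%) was higher in SKPs and 3 (20%) lower, beside 12.1% and 6.41% of all expressed genes. By counting error, 8 had intervals above equality, 6 below it and 1 included it, and the median log2 ratio was 0.12. Those above it included Mdm2, with a ratio of 1.62 (1.53 to 1.72). Perp, an adhesion gene of epithelia, had 4.44 RPKM in SKPs and 0.429 RPKM in fibroblasts and was 10.4-fold higher in SKPs (6.10 to 18.9). Gadd45g, a growth arrest gene, had 3.32 RPKM in SKPs and 56.4 RPKM in fibroblasts, Gadd45b of the same family had 10.4 RPKM in SKPs and 23.1 RPKM in fibroblasts, and Pmaip1, a cell death gene, had 5.89 RPKM in SKPs and 12.04 RPKM in fibroblasts. Bax, a cell death effector, had 123 RPKM in SKPs and 148 RPKM in fibroblasts, and Trp53 itself had 109.9 RPKM in SKPs and 104 RPKM in fibroblasts.

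Of 21 proliferation genes, 1 (4.76%) was lower in SKPs and 0 were higher, beside 6.41% and 12.1% of all expressed genes. Their median log2 ratio was -0.24. The 1 was Rrm2, a subunit of ribonucleotide reductase, with 14.8 RPKM in SKPs and 36.2 RPKM in fibroblasts, a ratio of 0.408 (0.371 to 0.449). Pcna, the sliding clamp of DNA replication, had 79.9 RPKM in SKPs and 64.5 RPKM in fibroblasts. Within the list, 2 subsets were picked out with their values in view. The 6 genes of the replicative helicase, Mcm2 to Mcm7, all had intervals above equality, with a median log2 ratio of 0.39. The 8 mitotic genes, Ccnb1 among them, all had intervals below equality, with a median of -0.45. No gene of either subset reached 2-fold, and both directions were chosen with the subsets, so they support nothing beyond these values. Tk1, the thymidine kinase of S phase, had 12.2 RPKM in SKPs and 18.1 RPKM in fibroblasts, a ratio of 0.670 (0.579 to 0.774), and so lay with Rrm2 and not with the helicase genes.

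**Figure D5:**
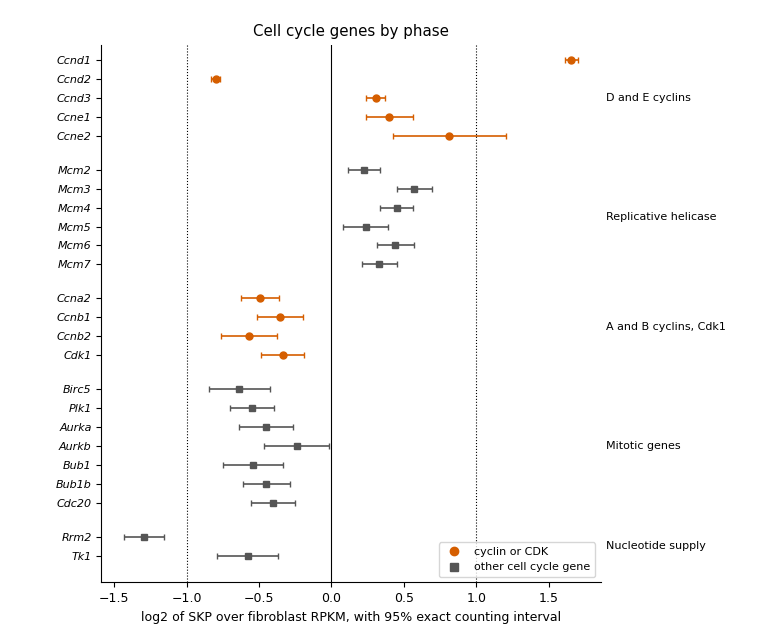
log2 of SKP over fibroblast RPKM, with 95% exact counting intervals, for D and E cyclins, replicative helicase genes, A and B cyclins with Cdk1, mitotic genes, and Rrm2 and Tk1. Circles are cyclins and Cdk1, squares are other genes, the solid line is equality and the dotted lines are 2-fold. The helicase genes lie above equality, the mitotic genes below it, all under 2-fold apart, and Rrm2 and Tk1 lie below it too.

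Of the reads, 85.13% of 22981183 were mapped to genes in SKPs and 81.65% of 23374716 in fibroblasts, and the 41 genes took 94956 reads in SKPs and 82369 in fibroblasts. The dermal fibroblast markers were high in both libraries, at a sum of 9503 RPKM in SKPs and 10592 RPKM in fibroblasts. Of those 7 markers, Col3a1 and Dcn were at least 2-fold higher in SKPs, and Col1a1 and Thy1 at least 2-fold lower. Of the 7 SKP markers, Nes (28.2 RPKM in SKPs and 6.30 RPKM in fibroblasts) and Sox2 (1.83 RPKM in SKPs and 0.818 RPKM in fibroblasts) were at least 2-fold higher in SKPs. Snai2, Ngfr, Twist1, Fn1 and Vim were all lower in SKPs, each by less than 2-fold. Among these, Snai2 had 29.0 RPKM in SKPs and 53.9 RPKM in fibroblasts, and Ngfr had 4.63 RPKM in SKPs and 7.33 RPKM in fibroblasts. The SKP list summed to 2450 RPKM in SKPs and 3168 RPKM in fibroblasts, most of it from Vim and Fn1. Markers of other cell types moved with the comparison. These were counted at 2-fold with no expression filter, so the shares of all expressed genes are no background for the counts. Some counted markers were under 1 RPKM in both libraries, such as Krt1 (0.279 RPKM in SKPs) and Cdh1 (0.574 RPKM in SKPs). Keratinocyte markers were higher in SKPs in 9 of 9 cases. Their sum was 36.2 RPKM in SKPs and 2.96 RPKM in fibroblasts, where Krt1 and Ivl were at 0. Leukocyte markers were higher in 7 of 9 cases (31.6 RPKM in SKPs and 5.24 RPKM in fibroblasts) and mast cell markers in 5 of 7 (73.0 RPKM in SKPs and 0.241 RPKM in fibroblasts, where Cpa3 and Fcer1a were at 0). Adipocyte markers were higher in 6 of 8 and lower in 1 (853 RPKM in SKPs and 447 RPKM in fibroblasts), and endothelial markers were higher in 3 of 5 and lower in 1 (4.81 RPKM in SKPs and 1.99 RPKM in fibroblasts). Their part in the differences of Cdkn2a, Cdkn2b, Ccnd1, Cdk6 and the other genes was not tested. In bulk RNA, fewer cells of a type and less RNA per cell cannot be told apart.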

How the data were processed

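RNA was measured in 1 library of SKPs and 1 of fibroblasts, grouped by the cell type in their labels. Per the labels' protocols, RNA was extracted with Trizol, treated with DNase I and enriched with oligo(dT) beads. The deposited count per gene is a whole number of reads, the deposited RPKM scales it by gene length and by the total count, and the deposited coverage is the percent of gene length under reads. Reads with at most 2 mismatches were mapped to genes, per the file headers. Counted reads exceed those with a single match by 4370357 in SKPs and 3924587 in fibroblasts. Per the submitters' processing notes the build was mm9. The sources used here do not give the aligner, the annotation or the strandedness. The authors' comparison table gives log2 of fibroblast over SKP RPKM with a p-value and FDR, and was used here only for which genes its filtered form holds.

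Ratios of RPKM and 95% exact (Clopper-Pearson) counting intervals came from the deposited counts (Python 3.11.15, pandas 2.3.3, numpy 2.4.6, scipy 1.17.1, with figures by matplotlib 3.10.9). A gene was called at 2-fold with an interval that excludes equality. Reads without molecular identifiers are not independent molecules. For a gene 1 kb long, 1 read equals 0.0528 RPKM in SKPs and 0.0543 RPKM in fibroblasts. Since each cell type has 1 library, no test between them was possible and no p-value was computed. TMM factors (edgeR 4.0.16 in R 4.3.3), median of ratios, log2(RPKM + 1), other filters and 1.5-fold were alternatives.

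One gene that fits the rule is not reported here. The rule and the lists were chosen with earlier results of these data known. From each list, up to 4 called genes, in the order of the interval bound closest to equality, and up to 2 with the highest RPKM are named. Overlaps of exons come from GENCODE M21, and other genes named were chosen after their values were seen.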

Additional observations from a re-analysis of the deposited data

How the results depend on the processing

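No paired analysis was possible because each group has 1 library, and leaving out a library was not possible for the same reason. The ratios of the 38 expressed genes stayed within their counting intervals under TMM scaling, a log2 shift of -0.02, and under median of ratios scaling, a shift of 0.01. All kept their direction under both, apart from Cdk2, which is at equality and changed sign under median of ratios scaling. On the log2(RPKM + 1) scale the ratio of Cdk18 was -1.70 and that of Cdk6 was 1.71, since the added 1 shrinks low values. There Cdk8 was no longer called, which left 1 gene lower in SKPs. At 1.5-fold, 4 genes were lower, with Ccnd2 and Ccnl2 added, and Ccne2 was added to the higher ones. E2f8 and Ccno were not called on the log2(RPKM + 1) scale. That left 0 higher in the pocket protein and E2F list and 0 among the other cyclins, CDK partners and CDK-like kinases. Cdkl2 and Pmaip1 were not called on that scale either. That left 2 lower among the other cyclins, CDK partners and CDK-like kinases and 2 in the p53 target list. With no expression filter 2 genes of the E2F list were higher, with E2f2 added, and under median of ratios scaling 2 p53 targets were higher, with Gadd45a added. Depth limits Ccna1, Ccnb3 and Ccnb1ip1, which had 0 to 4 reads.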
